A study of Bos taurus with 6 samples.

Results

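The genes described here encode the subunits, stabilisers and motors of microtubules: tubulins, kinesins and their light chains, stathmins, classical microtubule-associated proteins (MAPs), end-binding proteins, doublecortin and its kinases, and the subunits of cytoplasmic dynein 1. They were the rows of the count table whose symbols begin with TUBA, TUBB, TUBD, TUBE or TUBG and a digit, KIF, KLC, MAPRE, DCLK, DYNC1 or DYNL, together with STMN1 to STMN4, DCX, MAPT and MAP1B, MAP1S, MAP2, MAP4 and MAP7. That gave 72 of the 14179 genes in the table, of which 71 had enough counts to be tested and 1, KIF2B, had no counts in any library. By known role they were grouped into 21 neuronal genes, 12 mitotic kinesins, 2 genes used both by neurons and by dividing cells, 10 genes of centrioles, cilia and microtubule nucleation, 9 dynein subunits, 8 widely used tubulins, 1 platelet tubulin, 4 widely used kinesin genes and 5 widely used MAPs and end-binding proteins. These groups were drawn up with earlier results of these data known. Counts by group therefore describe the data and are not a separate test of the roles.

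Poly(A) RNA came from forebrain, rumen and liver of wild-type male Holstein fetuses, estimated at 90 days of gestation from a crown-rump length of 13 to 16 cm and collected at a slaughterhouse. Each tissue had 2 libraries, called Forebrain 1 and 2, Rumen 1 and 2, and Liver 1 and 2, all in 1 table of counts per gene symbol. Only 2 male fetuses are given in the labels, so the libraries came from at most 2 animals, and the labels do not say which animal gave which library. The p-values therefore measure the spread between these libraries, which may be technical. The libraries hold RNA of bulk tissue, so a lower level can mean fewer cells of a type or less RNA per cell, and the data cannot tell these apart.

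Microtubules are polymers of alpha and beta tubulin that grow and shrink at their ends. In neurons they are unusually stable: they fill axons and dendrites, are bundled by MAP2 and tau, and serve as rails for kinesins that carry cargo outward and for dynein, which carries it back to the cell body. In dividing cells the same polymer is rebuilt into the spindle, on which a separate set of kinesins sorts chromosomes and completes cell division. Vertebrates have many tubulin genes, and some isotypes are largely restricted to neurons or to platelets.

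Total counts lay between 10271024 and 18528958 per library. Levels are CPM, the counts scaled to each library's effective size. The detection floor, 3 counts summed over a tissue's libraries, equals 0.115 CPM in forebrain, 0.116 in rumen and 0.103 in liver, and covers counting error only. A defining marker of each tissue followed its label: the neuronal transporter SLC17A6 was found at 505 and 431 CPM in forebrain and had no counts elsewhere. The keratin KRT15 had 0 and 0 CPM in forebrain, against 7860.1 and 6270.0 in rumen and 0 and 4.37 in liver, and albumin (ALB) had 15.4 and 10.2 CPM in forebrain, against 0.383 and 1.01 in rumen and 41199 and 21196 in liver. The 2 liver libraries stood apart from each other. Of the 71 tested microtubule genes, 19 differed by over 2-fold between Liver 1 and Liver 2 and 8 by over 4-fold, whereas 2 and 0 did so between the forebrain libraries and 3 and 0 between the rumen libraries. Liver 1 was the higher one for 15 of the 19. Among all 11478 tested genes, 28.8% differed by over 2-fold between the liver libraries.

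**Figure D1:**
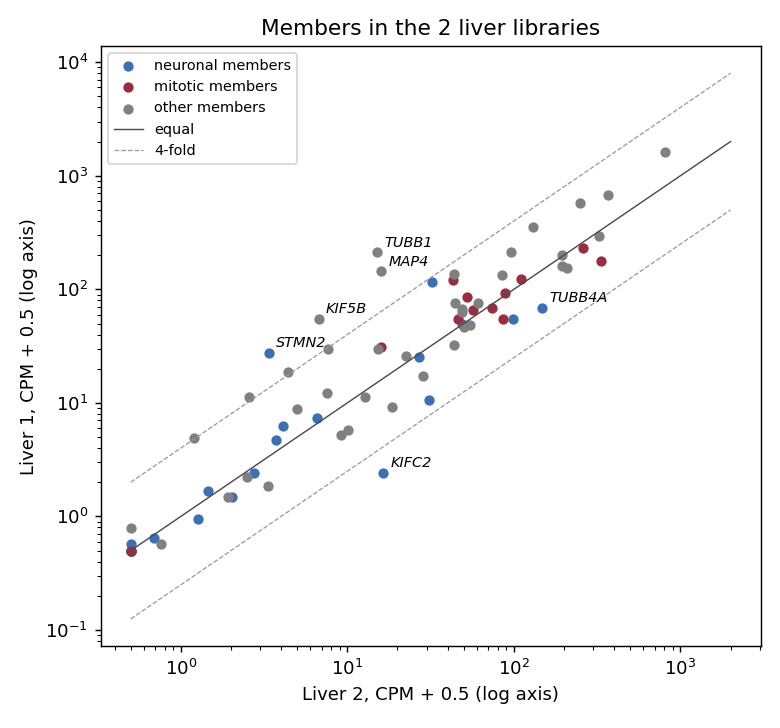
Level of each of the 72 microtubule genes in Liver 1 (y axis, CPM + 0.5) against Liver 2 (x axis, CPM + 0.5), both log axes, with neuronal genes in blue, mitotic kinesins in red and all others in grey. TUBB1, MAP4, STMN2 and KIF5B lay more than 4-fold higher in Liver 1, and KIFC2 lay more than 4-fold higher in Liver 2.

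Genes of the microtubule system took a larger share of the RNA in forebrain than in rumen or liver. The 72 genes together took 3.89 and 3.86% of all counts in forebrain, 0.579 and 0.595% in rumen and 0.568 and 0.403% in liver. Against rumen, 33 of 71 genes were higher in forebrain and 14 lower, or 66.2% called in either direction, against 39.3% of all tested genes (19.9% higher and 19.5% lower). Against liver, 36 were higher in forebrain and 17 lower, or 74.6% called, against 55.3% of all tested genes (25.9% higher and 29.4% lower). Between rumen and liver, 24 were higher in rumen and 14 lower, or 53.5% called, against 40.3% of all tested genes (20.1% higher and 20.3% lower). A gene was called where the quasi-likelihood F-test of edgeR, adjusted by Benjamini and Hochberg's method across the tested genes, gave an adjusted p under 0.05, and the 3 comparisons share libraries. The median log2 fold change of the microtubule genes was 0.98 for forebrain against rumen, 1.24 for forebrain against liver and 0.35 for rumen against liver, with medians over all tested genes of 0.01, -0.14 and -0.06.

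These counts moved when 1 library was left out, which leaves its tissue with a single library that is assumed to vary like the others. Libraries were left out 1 at a time throughout, so a call lost without either forebrain library was lost in each of those fits. Leaving out a liver library changes no forebrain or rumen count. It does change the spread of each gene, which is estimated over all tissues in the fit. Where a gene passed for forebrain against rumen only without a liver library, its call depended on the liver spread and is not a separate finding. For forebrain against rumen, the higher genes numbered 21 without Forebrain 1 or without Forebrain 2 and 19 without Rumen 1 or without Rumen 2, and the lower genes 9 without Forebrain 1. For rumen against liver, the lower genes numbered 26 without Liver 2, 6 without Rumen 1 and 5 without Rumen 2.

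The neuronal genes set forebrain apart from both other tissues. Against rumen 19 of 21 were higher and 0 lower (90.5% called), and against liver 20 of 21 were higher and 0 lower (95.2% called). Of all tested genes, 39.3% were called against rumen (19.9% higher) and 55.3% against liver (25.9% higher). All 21 neuronal genes had a positive log2 fold change in both comparisons. Their median was 3.59 against rumen and 5.72 against liver (5.68 with the 4 genes that had no counts in liver set to their lower bounds). No neuronal gene was lower in forebrain at an unadjusted p under 0.05 either, and DESeq2 and limma voom also called 0. Summed over the 21 genes, the level was 21533 and 22045 CPM in forebrain, against 1354 and 1343 in rumen and 373 and 419 in liver. In 17 of the 21 the level in forebrain was at least 4-fold above both other tissues with both comparisons called. Between rumen and liver, where 40.3% of all tested genes were called (20.1% higher), 14 of 21 neuronal genes were higher in rumen and 0 lower. That was 66.7% called, with a median log2 fold change of 2.50. At an unadjusted p under 0.05, 1 was lower in rumen, and DESeq2 called 1 lower and limma voom 0. Without Rumen 2 the higher genes there numbered 9, and with only the rumen and liver libraries in the fit 8.

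The 9 neuronal markers in the table summed to 2226 and 1959 CPM in forebrain, against 128 and 152 in rumen and 6.55 and 13.1 in liver. In rumen and in liver 5 of the 9 had no counts in either library, among them GAD1 and SLC17A6. Their forebrain levels varied widely, with GAD1 at 383 and 351 CPM, NEUROD6 at 13.8 and 13.2, GAD2 at 6.91 and 9.82 and TBR1 at 0.0813 and 1.01. By edgeR, 8 of the 9 were higher in forebrain than in rumen and than in liver, and TBR1 was not tested. The 5 markers of enteric neurons, the nerve cells of the gut wall, summed to 1991 and 1981 CPM in forebrain, against 383 and 429 in rumen and 8.49 and 44.6 in liver. In forebrain nearly all of that sum was UCHL1, a neuronal ubiquitin hydrolase, at 1963 and 1954 CPM. Of these 5 markers UCHL1 was higher in forebrain than in rumen, 3 were lower and RET was not called (edgeR). The neuropeptide VIP had 9.92 and 6.35 CPM in forebrain, against 39.3 and 55.4 in rumen and 0 and 0 in liver, and PRPH, an intermediate filament protein of peripheral neurons, had 14.1 and 14.8 CPM in forebrain, against 165 and 197 in rumen and 0.0744 and 0.385 in liver. The third, PHOX2A, a transcription factor of autonomic neurons, had 60.0 and 62.6 CPM in rumen and no counts in forebrain or liver. ELAVL4, a neuronal RNA-binding protein, had 58.4 and 74.4 CPM in rumen and no counts in liver. The part of nerve cells in the levels of the microtubule genes in rumen was not tested.

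**Figure D2:**
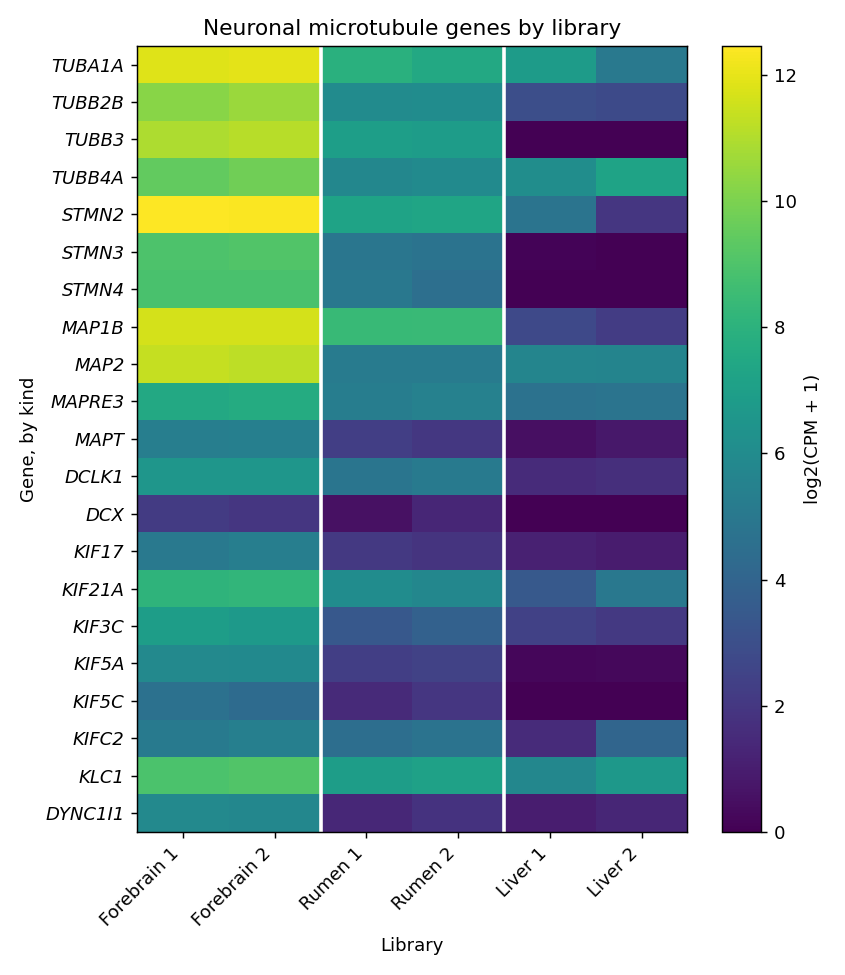
Heat map of the 21 neuronal microtubule genes (rows, grouped as tubulins, stathmins, MAPs, doublecortin genes, kinesin genes and a dynein chain) in the 6 libraries (columns), coloured by log2(CPM + 1). Every row is highest in the forebrain columns. TUBB3, STMN4, KIF5C and DCX had no counts in liver, while MAP2 and TUBB4A had mean levels in liver above those in rumen.

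Among tubulins, TUBB3 encodes the beta isotype used as a marker of neurons. It had 1976 and 2199 CPM in forebrain, against 124 and 117 in rumen and no counts in either liver library. Forebrain was 17.3-fold above rumen (log2 fold change 4.12 ± 0.25 (SE), adjusted p = 4.08e-04 by edgeR) and at least 20245-fold above the floor of liver, and rumen was at least 1164-fold above that floor. TUBB2B, a beta tubulin of developing cortex whose human mutations disturb cortical folding, had 1204 and 1553 CPM in forebrain, against 63.3 and 65.0 in rumen and 6.92 and 6.04 in liver. The 3 tissues did not overlap: forebrain was 21.5-fold above rumen (adjusted p = 2.51e-04, edgeR) and rumen 9.89-fold above liver (adjusted p = 3.29e-04, edgeR). TUBA1A, the main alpha tubulin of postmitotic neurons, had 3756 and 3996 CPM in forebrain, against 240.1 and 182 in rumen and 115 and 31.6 in liver. It was 18.4-fold higher in forebrain than in rumen (adjusted p = 0.00334, edgeR), whereas rumen against liver did not pass (adjusted p = 0.0741, edgeR), with Liver 1 at 3.65 times Liver 2.

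TUBB4A, a beta tubulin of mature brain and of oligodendrocytes, broke the order of the other neuronal tubulins. It had 705 and 866 CPM in forebrain, against 52.6 and 61.3 in rumen and 68.5 and 147 in liver, so both liver libraries lay above both rumen libraries. Forebrain was 13.8-fold above rumen (adjusted p = 0.00108) and 7.28-fold above liver (adjusted p = 0.00146, edgeR). The difference between rumen and liver did not pass (log2 fold change -0.92 ± 0.38, SE; adjusted p = 0.0966, edgeR). TUBB4A and TUBA1A passed for rumen against liver without Liver 1, and TUBA1A passed for rumen against liver without Liver 2 (adjusted p from 2.01e-05 to 0.0116, edgeR). Tubulin genes have closely similar coding sequences, and the handling of reads that fit several copies is not given in the sources, so tubulin levels are uncertain to that extent.

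Counting within a family gives a view that scaling between libraries cannot change, although the shares of different genes also reflect the lengths of their transcripts. The shares cover only genes with a row in the table, 7 alpha and 7 beta tubulins. An isotype without a row is not counted in them. Of all alpha tubulin counts, TUBA1A made up 62.3 and 63.8% in forebrain, 21.2 and 20.1% in rumen and 4.86 and 2.78% in liver. TUBA1B, a widely used alpha tubulin, made up 36.0 and 33.8% in forebrain, 66.4 and 65.4% in rumen and 68.0 and 70.7% in liver. TUBA4A, an alpha tubulin abundant in platelets, made up 0.167 and 0.0875% in forebrain, 7.40 and 8.23% in rumen and 24.2 and 21.8% in liver. For each of these 3 genes the forebrain libraries lay apart from all rumen and liver libraries: TUBA1A took a higher share in forebrain, and TUBA1B and TUBA4A a lower one.

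Among beta tubulins, with the common isotype TUBB counted in, TUBB3 made up 32.1 and 30.0% in forebrain, 9.09 and 8.41% in rumen and none of the counts in liver. TUBB2B made up 19.6 and 21.1% in forebrain, 4.64 and 4.68% in rumen and 0.276 and 0.640% in liver. TUBB itself, which the symbol rule does not take, made up 28.2 and 28.6% in forebrain, 53.2 and 53.9% in rumen and 60.7 and 40.5% in liver, and TUBB4B, a widely used isotype also built into cilia, 8.39 and 8.25% in forebrain, 21.7 and 19.7% in rumen and 27.1 and 38.7% in liver. The liver libraries disagreed in several of these shares, among them TUBB4A, which made up 11.5 and 11.8% in forebrain, 3.86 and 4.42% in rumen and 2.73 and 15.6% in liver.

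**Figure D3:**
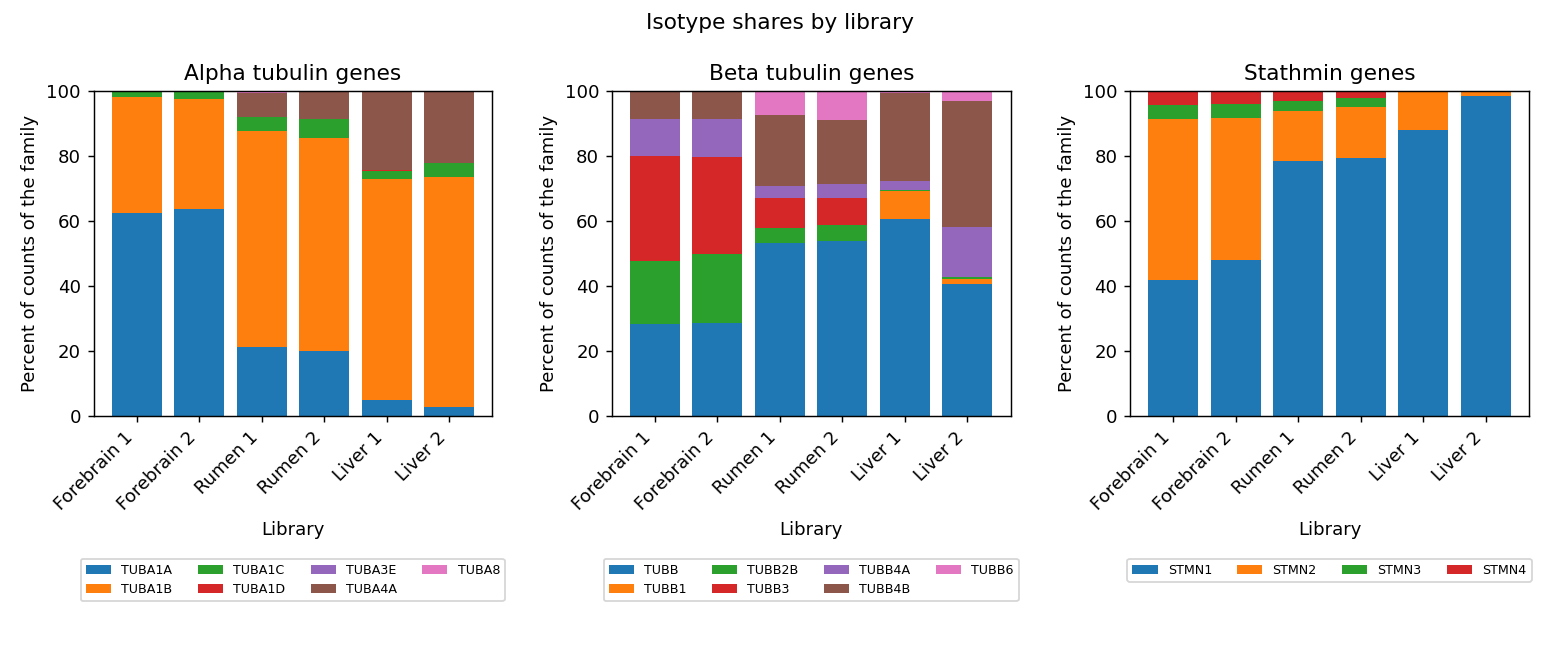
Stacked bars of the percent of counts that each gene took within the alpha tubulins, the beta tubulins and the stathmins (y axes, percent of counts of the family) in each of the 6 libraries (x axes). TUBA1A took 62.3 and 63.8% of alpha tubulin counts in forebrain, TUBB3 32.1 and 30.0% of beta tubulin counts in forebrain and 0% in liver, and STMN1 most of the stathmin counts in rumen and liver.

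The stathmins bind free tubulin and promote the shrinking of microtubules. STMN1 is found both in dividing cells and in developing neurons, whereas STMN2, STMN3 and STMN4 are mainly neuronal. STMN1 had 4789 and 5889 CPM in forebrain, against 764 and 800.0 in rumen and 199 and 193 in liver. It was 6.83-fold higher in forebrain than in rumen (adjusted p = 5.94e-04), 27.3-fold higher in forebrain than in liver (adjusted p = 7.25e-05) and 3.99-fold higher in rumen than in liver (adjusted p = 0.00141, edgeR), the opposite order of rumen and liver from the mitotic kinesins. The other gene of this shared group, KIF2A, a kinesin that takes microtubule ends apart, had 52.6 and 36.9 CPM in forebrain, against 9.41 and 10.8 in rumen and 29.0 and 7.19 in liver, and passed in forebrain against rumen alone (adjusted p = 0.0382, edgeR). Without a forebrain or a rumen library that call was lost, with adjusted p up to 0.182. KIF2A passed for forebrain against liver without Liver 1, and KIF2A passed for rumen against liver without Liver 2 (adjusted p from 6.60e-05 to 0.00104, edgeR).

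STMN2, a stathmin of growing axons, had 5639 and 5340.1 CPM in forebrain, against 149 and 161 in rumen and 27.2 and 2.89 in liver. Both rumen libraries lay far below forebrain and above both liver libraries, and Liver 1 was 9.40 times Liver 2. Forebrain was 35.4-fold above rumen (adjusted p = 0.00760), a call lost without either rumen library (adjusted p up to 0.0731), and rumen 10.3-fold above liver (adjusted p = 0.0258, edgeR), a call lost without any 1 of the forebrain or rumen libraries (adjusted p up to 0.0964). STMN3 had 506 and 544 CPM in forebrain and 28.6 and 25.6 CPM in rumen, with a single count in Liver 1 and none in Liver 2. Forebrain was 19.4-fold above rumen (adjusted p = 3.45e-04, edgeR). The ratio of rumen to liver was 787 with a 95% counting interval from 141 to 31113. STMN4 had 478 and 475 CPM in forebrain, against 30.9 and 22.8 in rumen and no counts in either liver library, at least 4604-fold above the liver floor in forebrain and at least 260.0-fold in rumen. As a share of stathmin counts, STMN1 took 42.0 and 48.1% in forebrain, 78.5 and 79.3% in rumen and 88.0 and 98.5% in liver, and STMN2 49.4 and 43.6% in forebrain, 15.4 and 15.9% in rumen and 12.0 and 1.48% in liver.

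The MAPs that bundle and stabilise microtubules were high in forebrain, and differed in the order of rumen and liver. MAP1B, a MAP of growing axons, had 3237 and 3203 CPM in forebrain, against 332 and 348 in rumen and 5.81 and 3.60 in liver. It was 9.47-fold higher in forebrain than in rumen (adjusted p = 5.98e-04) and 72.4-fold higher in rumen than in liver (log2 fold change 6.18 ± 0.34, SE; adjusted p = 2.22e-04, edgeR). MAP2, the MAP of dendrites, had 2625 and 2383 CPM in forebrain, against 35.4 and 35.0 in rumen and 49.4 and 48.2 in liver. Both liver libraries lay above both rumen libraries, and the difference did not pass (log2 fold change -0.47 ± 0.21, SE; adjusted p = 0.119 by edgeR). Forebrain was 71.0-fold above rumen, the largest such fold among the 21 neuronal genes (adjusted p = 2.30e-04, edgeR).

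MAPT, which encodes the axonal protein tau, had 39.5 and 40.1 CPM in forebrain, against 3.90 and 3.12 in rumen and 0.447 and 0.771 in liver, with forebrain 11.3-fold above rumen (adjusted p = 0.00135) and rumen 5.65-fold above liver (adjusted p = 0.00568, edgeR). DCX, the doublecortin of migrating young neurons, was counted at low levels, 3.50 and 2.89 CPM in forebrain, against 0.459 and 1.56 in rumen and no counts in either liver library. Only 83 counts over both forebrain libraries and 26 over both rumen libraries stood behind these values. In RefSeq DCX overlaps 4 other genes, among them SERTM2. Reads of the overlaps cannot be told apart without the strand setting. DCX did not pass for forebrain against rumen (adjusted p = 0.210, edgeR), and forebrain was at least 30.7-fold above the liver floor. DCX lost its call for forebrain against liver without either forebrain library (adjusted p up to 0.0570, edgeR) and for rumen against liver without either forebrain library or Rumen 2 (adjusted p up to 0.0914, edgeR). DCLK1, a kinase with doublecortin domains, had 92.9 and 91.2 CPM in forebrain, against 27.4 and 32.9 in rumen and 1.94 and 2.25 in liver. Forebrain was 3.05-fold above rumen (adjusted p = 0.00339), the smallest such fold among the 19 called neuronal genes, and rumen 14.3-fold above liver (adjusted p = 2.85e-04, edgeR).

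Neuronal motors followed the same order of tissues. Kinesin-1 is the main motor of outward transport, with the heavy chains KIF5A and KIF5C in neurons and KIF5B in most cells. KIF5A had 57.1 and 58.5 CPM in forebrain, against 3.90 and 4.53 in rumen and 0.149 and 0.193 in liver, 13.7-fold higher in forebrain than in rumen (adjusted p = 4.89e-04) and 23.3-fold higher in rumen than in liver (adjusted p = 5.28e-04, edgeR). KIF5C had 24.5 and 19.6 CPM in forebrain, against 1.76 and 2.89 in rumen and no counts in either liver library, 9.44-fold above rumen in forebrain (adjusted p = 0.00756, edgeR), a call lost without either forebrain library or Rumen 1 (adjusted p up to 0.0828). KIF5B had 38.8 and 25.0 CPM in forebrain, against 19.9 and 27.5 in rumen and 54.5 and 6.23 in liver, and passed in none of the 3 comparisons. Its liver level depended on the library. For forebrain against liver the log2 fold change was -0.77 without Liver 2 (adjusted p = 0.0405) and 2.36 without Liver 1 (adjusted p = 3.55e-04, edgeR). For rumen against liver it was -1.20 without Liver 2 (adjusted p = 0.00588) and 1.92 without Liver 1 (adjusted p = 0.00168, edgeR). Of the kinesin-1 heavy chain counts, KIF5B took 32.2 and 24.2% in forebrain, 77.8 and 78.7% in rumen and 99.7 and 97.0% in liver.

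KIF3C, a neuronal partner in the kinesin-2 motor, had 121 and 102 CPM in forebrain, against 9.72 and 13.6 in rumen and 4.24 and 3.21 in liver, and KIF17, a kinesin-2 motor of dendrites and cilia, had 31.6 and 39.0 CPM in forebrain, against 3.21 and 2.65 in rumen and 1.19 and 0.963 in liver. In both, forebrain lay above rumen, by 9.56-fold (adjusted p = 6.72e-04) and 12.0-fold (adjusted p = 0.00117, edgeR). KIF21A, a kinesin that dampens microtubule growth, had 276 and 290.1 CPM in forebrain, against 65.2 and 54.1 in rumen and 10.2 and 30.6 in liver, 4.75-fold higher in forebrain than in rumen (adjusted p = 0.0131, edgeR), a call lost without any 1 of the forebrain or rumen libraries (adjusted p up to 0.105). The call of KIF21A for rumen against liver was lost in the same 4 fits (adjusted p up to 0.176), as was that of KIF17 (adjusted p up to 0.131). KLC1, a kinesin-1 light chain rich in neurons, had 484 and 548 CPM in forebrain, against 122 and 140.3 in rumen and 54.0 and 97.8 in liver, and was 3.94-fold higher in forebrain than in rumen (adjusted p = 0.00457, edgeR). KLC1 lost its call for forebrain against rumen without Rumen 1 (adjusted p = 0.0551, edgeR). KIF3C lost its call for rumen against liver without Rumen 2 (adjusted p = 0.0535, edgeR).

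DYNC1I1, the neuronal intermediate chain of dynein, had 57.0 and 53.1 CPM in forebrain, against 1.61 and 2.50 in rumen and 0.968 and 1.54 in liver. Forebrain was 26.7-fold above rumen (adjusted p = 5.79e-04) and 43.3-fold above liver (adjusted p = 1.84e-04), while rumen and liver did not differ past the threshold (adjusted p = 0.222, edgeR). Its share of intermediate chain counts, beside the widely used DYNC1I2, was 13.6 and 13.6% in forebrain, 0.841 and 1.26% in rumen and 1.27 and 2.51% in liver. MAPRE3, the end-binding protein EB3 of neurons, had 185 and 201 CPM in forebrain, against 37.3 and 42.9 in rumen and 25.1 and 26.6 in liver, 4.81-fold higher in forebrain than in rumen (adjusted p = 7.01e-04, edgeR). KIFC2, a minus-end kinesin described in mouse neurons, was the 1 neuronal gene that passed in no comparison, with 34.7 and 40.5 CPM in forebrain, against 21.8 and 25.5 in rumen and 1.94 and 15.9 in liver, and Liver 2 was 8.23 times Liver 1. KIFC2 passed for forebrain against rumen without Liver 1 or Liver 2, KIFC2 passed for forebrain against liver without Liver 1 or Liver 2, KIFC2 and MAPRE3 passed for rumen against liver without Liver 2, and MAPRE3 passed for rumen against liver without Liver 1 (adjusted p from 3.35e-06 to 0.0260, edgeR).

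The mitotic kinesins ran the other way. All 11 with counts had their lowest mean in forebrain and their highest in liver, with rumen between. Against rumen, 0 of 11 were higher in forebrain and 10 lower, and against liver 0 were higher and 11 lower, and those 11 were called in each fit that left out 1 library. Between rumen and liver, 0 were higher in rumen and 9 lower. The share called was 90.9% for forebrain against rumen, 100% for forebrain against liver and 81.8% for rumen against liver. Of all tested genes 39.3, 55.3 and 40.3% were called, with 19.5, 29.4 and 20.3% lower. None of the 11 mitotic kinesins was higher at an unadjusted p under 0.05 in any of these comparisons, and DESeq2 and limma voom also called 0 higher. The median log2 fold change was -1.91 for forebrain against rumen, -4.14 for forebrain against liver and -1.78 for rumen against liver. The genes lower in forebrain than in rumen numbered 6 without Forebrain 1, and those lower in rumen than in liver 4 without Rumen 2. Summed over the group, the level was 63.3 and 69.2 CPM in forebrain, against 310.0 and 320.0 in rumen and 1102 and 1161 in liver.

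Markers of dividing cells had the same order of summed levels. The 8 in the table, which include the cyclins CCNA2, CCNB1 and CCNB2 and the mitotic kinase CDK1, summed to 152 and 161 CPM in forebrain, against 436 and 487 in rumen and 1949.6 and 1484 in liver, and all 8 were lower in forebrain than in liver and in rumen than in liver. In forebrain against rumen 6 of the 8 were lower, and CDK1 (adjusted p = 0.132) and PCNA, a DNA replication clamp (adjusted p = 0.100, edgeR), were not called. Erythroid cells, which multiply in the fetal liver, were also marked there: the 8 erythroid markers summed to 459.9 and 497 CPM in forebrain, against 545 and 455 in rumen and 148167 and 56513 in liver. Most of the erythroid sum in liver was the globin gene HBG, at 109165 CPM in Liver 1 and 37468 in Liver 2. Of the 8 erythroid markers only KLF1 was higher in Liver 2, with 724 CPM in Liver 1 and 974 in Liver 2. The summed mitotic kinesins were 1102 CPM in Liver 1 and 1161 in Liver 2. The part of dividing or erythroid cells in the kinesin levels was not tested.

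**Figure D4:**
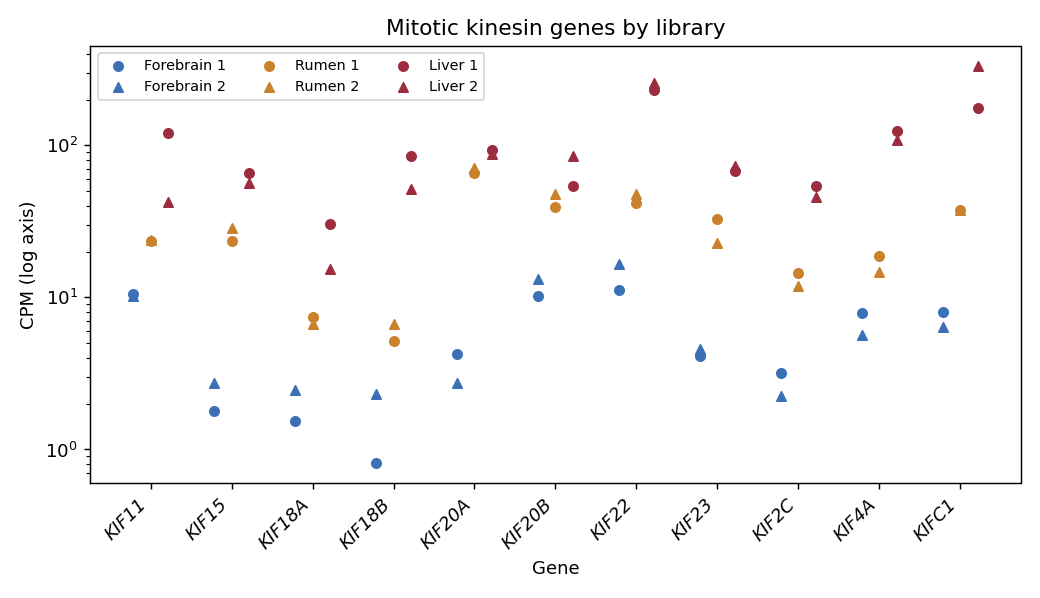
CPM (y axis, log axis) of the 11 mitotic kinesin genes with counts (x axis) in each of the 6 libraries, with circles for library 1 and triangles for library 2 of a tissue. For every gene the forebrain points are the lowest and the liver points the highest, and the rumen points of KIF20A lie close to its liver points.

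In spindle assembly, KIF11, the sliding motor Eg5 that pushes spindle poles apart, had 10.5 and 10.2 CPM in forebrain, against 23.4 and 24.0 in rumen and 121 and 42.5 in liver. Its forebrain and rumen levels did not differ past the threshold (adjusted p = 0.0947, edgeR), and it was 7.86-fold lower in forebrain than in liver (adjusted p = 0.00337, edgeR). KIF15, which backs up KIF11 on the spindle, had 1.79 and 2.74 CPM in forebrain, against 23.6 and 28.8 in rumen and 65.7 and 56.7 in liver, 11.5-fold lower in forebrain than in rumen (adjusted p = 7.08e-04, edgeR). KIFC1, a minus-end motor that focuses spindle poles, had 7.97 and 6.35 CPM in forebrain, against 37.6 and 37.6 in rumen and 177 and 334 in liver, 35.7-fold lower in forebrain than in liver (adjusted p = 1.56e-04) and 6.79-fold lower in rumen than in liver (adjusted p = 0.00171, edgeR). KIF11 lost its call for rumen against liver without any 1 of the forebrain or rumen libraries (adjusted p up to 0.142, edgeR). KIF15 lost its call for rumen against liver without either rumen library (adjusted p up to 0.140, edgeR). KIF11 passed for forebrain against rumen without Liver 1 or Liver 2 (adjusted p from 2.72e-04 to 8.14e-04, edgeR).

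Several motors that work on chromosomes and kinetochores lay far below liver in rumen. KIF18B, which shortens astral microtubules, had 0.813 and 2.31 CPM in forebrain, against 5.20 and 6.71 in rumen and 85.1 and 51.6 in liver, 11.5-fold lower in rumen than in liver (adjusted p = 0.00300, edgeR). KIF22, a chromosome-arm motor, had 11.1 and 16.7 CPM in forebrain, against 41.7 and 47.8 in rumen and 232 and 259 in liver, 5.49-fold lower in rumen than in liver (adjusted p = 9.87e-04, edgeR). KIF4A, which binds chromosomes and the central spindle, had 7.89 and 5.70 CPM in forebrain, against 18.8 and 14.6 in rumen and 124 and 109 in liver, 6.97-fold lower in rumen (adjusted p = 7.56e-04, edgeR). KIF2C, which takes microtubules apart at kinetochores, had 3.17 and 2.24 CPM in forebrain, against 14.5 and 11.9 in rumen and 53.8 and 45.9 in liver, and KIF18A, which damps chromosome movement, had 1.54 and 2.45 CPM in forebrain, against 7.42 and 6.71 in rumen and 30.4 and 15.4 in liver. The calls of KIF18A depended on single libraries: for forebrain against rumen it was lost without any 1 of the forebrain or rumen libraries (adjusted p up to 0.196), and for rumen against liver also without Liver 1 (adjusted p up to 0.179). KIF18B lost its call for forebrain against rumen without Forebrain 1, Rumen 1 or Rumen 2 (adjusted p up to 0.144, edgeR). KIF4A lost its call for forebrain against rumen without either forebrain library or Rumen 1 (adjusted p up to 0.113, edgeR). KIF2C lost its call for rumen against liver without Rumen 2 (adjusted p = 0.0566, edgeR). KIF2B, a relative of KIF2C, had no counts in any library, which allows up to the floor of each tissue.

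Of the kinesins of cell cleavage, KIF20A and KIF20B were the 2 mitotic kinesins with no call between rumen and liver. KIF20A, which brings regulators to the central spindle, had 4.23 and 2.74 CPM in forebrain, against 65.4 and 71.4 in rumen and 92.6 and 87.6 in liver. Forebrain was 19.6-fold below rumen (log2 fold change -4.30 ± 0.30 (SE), adjusted p = 3.45e-04, edgeR), while rumen and liver did not differ past the threshold (log2 fold change -0.40 ± 0.26, SE; adjusted p = 0.264, edgeR). KIF20B, which acts in the last step of cleavage, had 10.2 and 13.2 CPM in forebrain, against 39.4 and 47.7 in rumen and 54.0 and 85.4 in liver, with adjusted p = 0.131 between rumen and liver (edgeR). KIF20B lost its call for forebrain against rumen without Forebrain 1 (adjusted p = 0.0607, edgeR). KIF20B passed for rumen against liver without Liver 1 (adjusted p = 0.00443, edgeR). KIF23, which bundles the central spindle, had 4.15 and 4.55 CPM in forebrain, against 32.8 and 22.9 in rumen and 67.4 and 73.5 in liver, and was 2.53-fold lower in rumen than in liver (adjusted p = 0.0108), a call lost without Rumen 2 (adjusted p = 0.101, edgeR). In the RefSeq annotation KIF20A overlaps CDC23 and KIF23 overlaps PAQR5, and the strand setting of the counts is not given, so their reads within the overlaps cannot be told apart from those of the partner.

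Outside these groups, 3 tubulins had a home tissue, with a call and at least a 4-fold difference against both others. TUBB1, the beta tubulin of the platelet marginal band, had 1.54 and 1.30 CPM in forebrain, against 1.07 and 0.936 in rumen and 213 and 14.6 in liver. It was 79.6-fold lower in forebrain than in liver (adjusted p = 0.00682) and 112-fold lower in rumen than in liver (adjusted p = 0.00847, edgeR), but Liver 1 was 14.5 times Liver 2, and limma voom called neither. The calls were also lost in the forebrain comparison without either forebrain library (adjusted p up to 0.0558) and in the rumen comparison without either rumen library (adjusted p up to 0.0746, edgeR). The 4 markers of megakaryocytes and platelets in the table summed to 5.94 and 5.70 CPM in forebrain, against 56.1 and 62.2 in rumen and 1949.6 and 1284 in liver. Within liver, PF4 and ITGB3 stood at 1086 and 556 and at 616 and 235 CPM, higher in Liver 1 like TUBB1, and ITGA2B at 227 and 488 CPM, higher in Liver 2. Their part in the TUBB1 level was not tested.

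TUBA4A had 10.1 and 5.48 CPM in forebrain, against 83.6 and 74.2 in rumen and 575 and 248 in liver, 52.9-fold lower in forebrain than in liver (log2 fold change -5.73 ± 0.55 (SE), adjusted p = 3.55e-04) and 5.21-fold lower in rumen than in liver (adjusted p = 0.00891, edgeR). The last call was lost without either rumen library (adjusted p up to 0.0809). It was the 1 tubulin outside the platelet isotype that met the 4-fold rule for liver in both comparisons. TUBB6, a widely used beta tubulin, was the rumen tubulin, with 10.0 and 17.5 CPM in forebrain, against 100.5 and 122 in rumen and 16.6 and 28.0 in liver. Forebrain was 8.10-fold below rumen (adjusted p = 0.00221) and rumen 4.99-fold above liver (adjusted p = 0.00482, edgeR). The 8 markers of smooth muscle and mesenchyme summed to 76.1 and 121 CPM in forebrain, against 17511 and 17996 in rumen and 818 and 634 in liver, and their part in the TUBB6 level was not tested. TUBB6 passed for forebrain against liver without Liver 1 (adjusted p = 0.0115, edgeR).

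The widely used alpha tubulin TUBA1B had 2167 and 2120.4 CPM in forebrain, against 751 and 589 in rumen and 1613 and 804 in liver, and TUBA1C had 79.2 and 128 CPM in forebrain, against 49.7 and 52.4 in rumen and 62.0 and 48.3 in liver. Both were higher in forebrain than in rumen, by 3.20-fold (adjusted p = 0.0135) and 2.03-fold (adjusted p = 0.0357, edgeR), calls lost without any 1 of the forebrain or rumen libraries (adjusted p up to 0.118 for TUBA1B and 0.286 for TUBA1C). TUBB4B had 516 and 606 CPM in forebrain, against 296 and 274 in rumen and 680.4 and 365 in liver, and passed in no comparison. TUBA1C lost its call for forebrain against liver without Forebrain 2, Rumen 1 or Rumen 2 (adjusted p up to 0.296, edgeR). TUBA1B and TUBB4B passed for forebrain against liver without Liver 1, TUBA1B and TUBB4B passed for rumen against liver without Liver 2, and TUBB4B passed for forebrain against rumen without Liver 1 or Liver 2 (adjusted p from 2.22e-04 to 0.0138, edgeR). The remaining alpha tubulins were scarce in all libraries. TUBA1D had 3.82 and 11.0 CPM in forebrain, against 0.153 and 0.546 in rumen and 4.39 and 0.707 in liver, higher in forebrain than in rumen (adjusted p = 0.0316, edgeR). TUBA8 had 8.62 and 7.00 CPM in forebrain, against 5.74 and 2.97 in rumen and 1.34 and 2.83 in liver, higher in forebrain than in liver (adjusted p = 0.0456, edgeR). TUBA3E had 0.407 and 0.217 CPM in forebrain, against 0.0765 and 0.468 in rumen and 1.71 and 1.99 in liver, with no call. TUBA1D lost its call for forebrain against rumen without any 1 of the forebrain or rumen libraries (adjusted p up to 0.196, edgeR). TUBA8 lost its call for forebrain against liver without any 1 library except Liver 2 (adjusted p up to 0.204, edgeR). TUBA1D passed for forebrain against liver without Liver 1, and TUBA1D passed for rumen against liver without Liver 2 (adjusted p from 0.00708 to 0.0149, edgeR).

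Among widely used kinesin genes, KLC3 was a rumen transcript. This kinesin-1 light chain, best known from sperm tails in rodents, had 0.163 and 0.217 CPM in forebrain, against 20.1 and 21.0 in rumen and 0.0744 and 0.257 in liver. Forebrain was 103-fold below rumen (log2 fold change -6.69 ± 0.71 (SE), adjusted p = 9.59e-04) and rumen 115-fold above liver (adjusted p = 7.72e-04, edgeR), and both calls held in every fit that left out 1 library. Forebrain held 5 counts in all and liver 5, so these folds rest on few counts on the low side. The 7 rumen epithelium markers in the table summed to 18.7 and 14.2 CPM in forebrain, against 14434 and 11757 in rumen and 107 and 206 in liver, and their part in the KLC3 level was not tested. In RefSeq KLC3 overlaps ERCC2, a DNA repair helicase, and reads of the overlap cannot be told apart without the strand setting.

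KIF1C, a carrier of vesicles and integrins, had 36.3 and 33.6 CPM in forebrain, against 75.1 and 76.3 in rumen and 153 and 209 in liver, lowest in forebrain and highest in liver with no overlap, and all 3 comparisons passed (adjusted p = 0.0121 for forebrain against rumen, 4.56e-04 for forebrain against liver and 0.00738 for rumen against liver, edgeR). The call against rumen was lost without any 1 of the forebrain or rumen libraries (adjusted p up to 0.107), and that between rumen and liver without either rumen library (adjusted p up to 0.0730). KLC2, a light chain found in many tissues, had 40.5 and 43.2 CPM in forebrain, against 20.8 and 14.3 in rumen and 25.5 and 22.2 in liver. It was higher in forebrain than in rumen (adjusted p = 0.0175, edgeR), a call lost without any 1 of those 4 libraries (adjusted p up to 0.137). KLC2 passed for forebrain against liver without Liver 1 or Liver 2 (adjusted p from 0.0143 to 0.0412, edgeR).

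The 5 widely used MAPs and end-binding proteins gave 2 calls higher in forebrain than in rumen and 0 lower. They gave 0 calls for forebrain against liver, and 1 higher and 0 lower in rumen than in liver (edgeR). The share called was 40, 0 and 20%, with 39.3, 55.3 and 40.3% of all tested genes called. DESeq2 called 1 lower in forebrain than in rumen, 1 higher in forebrain than in liver and 1 lower in rumen than in liver. MAP7, which recruits kinesin-1 and is rich in epithelia, had 25.9 and 28.6 CPM in forebrain, against 59.2 and 55.7 in rumen and 8.71 and 18.1 in liver, and was 4.28-fold higher in rumen than in liver (adjusted p = 0.00679, edgeR). The end-binding protein MAPRE1 had 226 and 233 CPM in forebrain, against 96.7 and 78.9 in rumen and 213 and 95.8 in liver, and its relative MAPRE2 had 379.7 and 321 CPM in forebrain, against 93.6 and 93.7 in rumen and 356 and 129 in liver. Both were higher in forebrain than in rumen, by 2.62-fold (adjusted p = 0.0302) and 3.74-fold (adjusted p = 0.0191, edgeR). Both calls were lost without any 1 of the forebrain or rumen libraries, with adjusted p up to 0.185 for MAPRE1 and 0.119 for MAPRE2. MAPRE1 and MAPRE2 passed for forebrain against liver without Liver 1, MAPRE1 and MAPRE2 passed for rumen against liver without Liver 2, and MAPRE2 passed for rumen against liver without Liver 1 (adjusted p from 9.43e-06 to 0.0454, edgeR). MAP4, the MAP of non-neuronal cells, had 36.8 and 29.1 CPM in forebrain, against 67.6 and 61.9 in rumen and 144 and 15.5 in liver, and passed in no comparison. Its liver value turned with the library: without Liver 1 the log2 fold change was 1.09 for forebrain against liver (adjusted p = 0.00248) and 2.06 for rumen against liver (adjusted p = 7.12e-05, edgeR). Without Liver 2 they were -2.13 (adjusted p = 7.28e-06) and -1.15 (adjusted p = 6.17e-04, edgeR), and with both liver libraries -1.28 and -0.30. MAP1S, a relative of MAP1B found in many tissues, had 2.68 and 2.53 CPM in forebrain, against 1.91 and 1.09 in rumen and 10.9 and 2.06 in liver, and passed in no comparison with all libraries. MAP4 and MAP7 passed for forebrain against rumen without Liver 1 or Liver 2, MAP7 passed for forebrain against liver without Liver 1, MAP7 and MAP1S passed for forebrain against liver without Liver 2, and MAP1S passed for rumen against liver without Liver 2 (adjusted p from 1.98e-04 to 0.0346, edgeR).

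Cytoplasmic dynein is the motor toward the minus ends of microtubules. Its heavy chain DYNC1H1 had 302 and 289 CPM in forebrain, against 326 and 362 in rumen and 296 and 322 in liver, and passed in no comparison, with log2 fold changes of -0.22 ± 0.20 for forebrain against rumen, -0.07 ± 0.20 for forebrain against liver and 0.15 ± 0.20 for rumen against liver (SE). Of 9 dynein genes outside the neuronal chain, 4 were higher in forebrain than in rumen and 0 lower, 7 higher in forebrain than in liver and 0 lower, and 3 higher in rumen than in liver and 0 lower. The share called was 44.4% for forebrain against rumen, 77.8% for forebrain against liver and 33.3% for rumen against liver, with 39.3, 55.3 and 40.3% of all tested genes called. DESeq2 called 5 higher in rumen than in liver. No dynein gene was lower at an unadjusted p under 0.05 in any of the 3, and DESeq2 and limma voom called 0 lower too. None of the 4 calls against rumen held in every fit that left out 1 library.

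DYNC1I2, the widely used intermediate chain, had 361 and 336 CPM in forebrain, against 189.5 and 196 in rumen and 75.3 and 60.0 in liver. All 3 steps passed for it, with adjusted p = 0.0212 for forebrain against rumen, 3.24e-04 for forebrain against liver and 0.00266 for rumen against liver by edgeR. The first of these was lost without any 1 of the forebrain or rumen libraries (adjusted p up to 0.161). The light chain DYNLL1 had 333 and 414 CPM in forebrain, against 217 and 191 in rumen and 135 and 43.0 in liver. Its close relative DYNLL2 had 526 and 535 CPM in forebrain, against 207 and 170.4 in rumen and 159 and 193 in liver. DYNLT1, another light chain, had 239 and 292 CPM in forebrain, against 77.9 and 67.5 in rumen and 133 and 83.8 in liver. DYNLT1 and DYNLL2 were 3.65-fold (adjusted p = 0.00391) and 2.81-fold (adjusted p = 0.00342, edgeR) higher in forebrain than in rumen, calls lost without Rumen 2 alone (adjusted p = 0.0526 and 0.0542). The light chain DYNLT3 had 107 and 96.6 CPM in forebrain, against 144 and 132 in rumen and 48.4 and 54.3 in liver, with no overlap between tissues, and was 2.69-fold higher in rumen than in liver (adjusted p = 0.00299, edgeR). The roadblock light chain DYNLRB1 had 211 and 254 CPM in forebrain, against 150.1 and 146 in rumen and 66.9 and 48.0 in liver. DYNC1LI1, a light intermediate chain, had 148 and 150.0 CPM in forebrain, against 70.9 and 73.5 in rumen and 46.4 and 49.9 in liver, and DYNC1LI2, its sister, 14.9 and 11.5 CPM in forebrain, against 9.64 and 19.2 in rumen and 18.2 and 3.92 in liver with no call. DYNC1LI1 lost its call for forebrain against rumen without any 1 of the forebrain or rumen libraries (adjusted p up to 0.0851, edgeR). DYNLL1 lost its call for forebrain against liver without Forebrain 2 (adjusted p = 0.0737, edgeR). DYNLT1 lost its call for forebrain against liver without Forebrain 2 (adjusted p = 0.0758, edgeR). DYNLT3 lost its call for forebrain against liver without either forebrain library (adjusted p up to 0.0769, edgeR). DYNLRB1 lost its call for rumen against liver without Rumen 1 (adjusted p = 0.0542, edgeR). DYNC1LI2 passed for forebrain against liver without Liver 1, DYNC1LI2 and DYNLL1 passed for rumen against liver without Liver 1, DYNLL1 and DYNLT3 passed for forebrain against rumen without Liver 1 or Liver 2, and DYNLL1 passed for rumen against liver without Liver 2 (adjusted p from 1.64e-05 to 0.0264, edgeR).

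**Figure D5:**
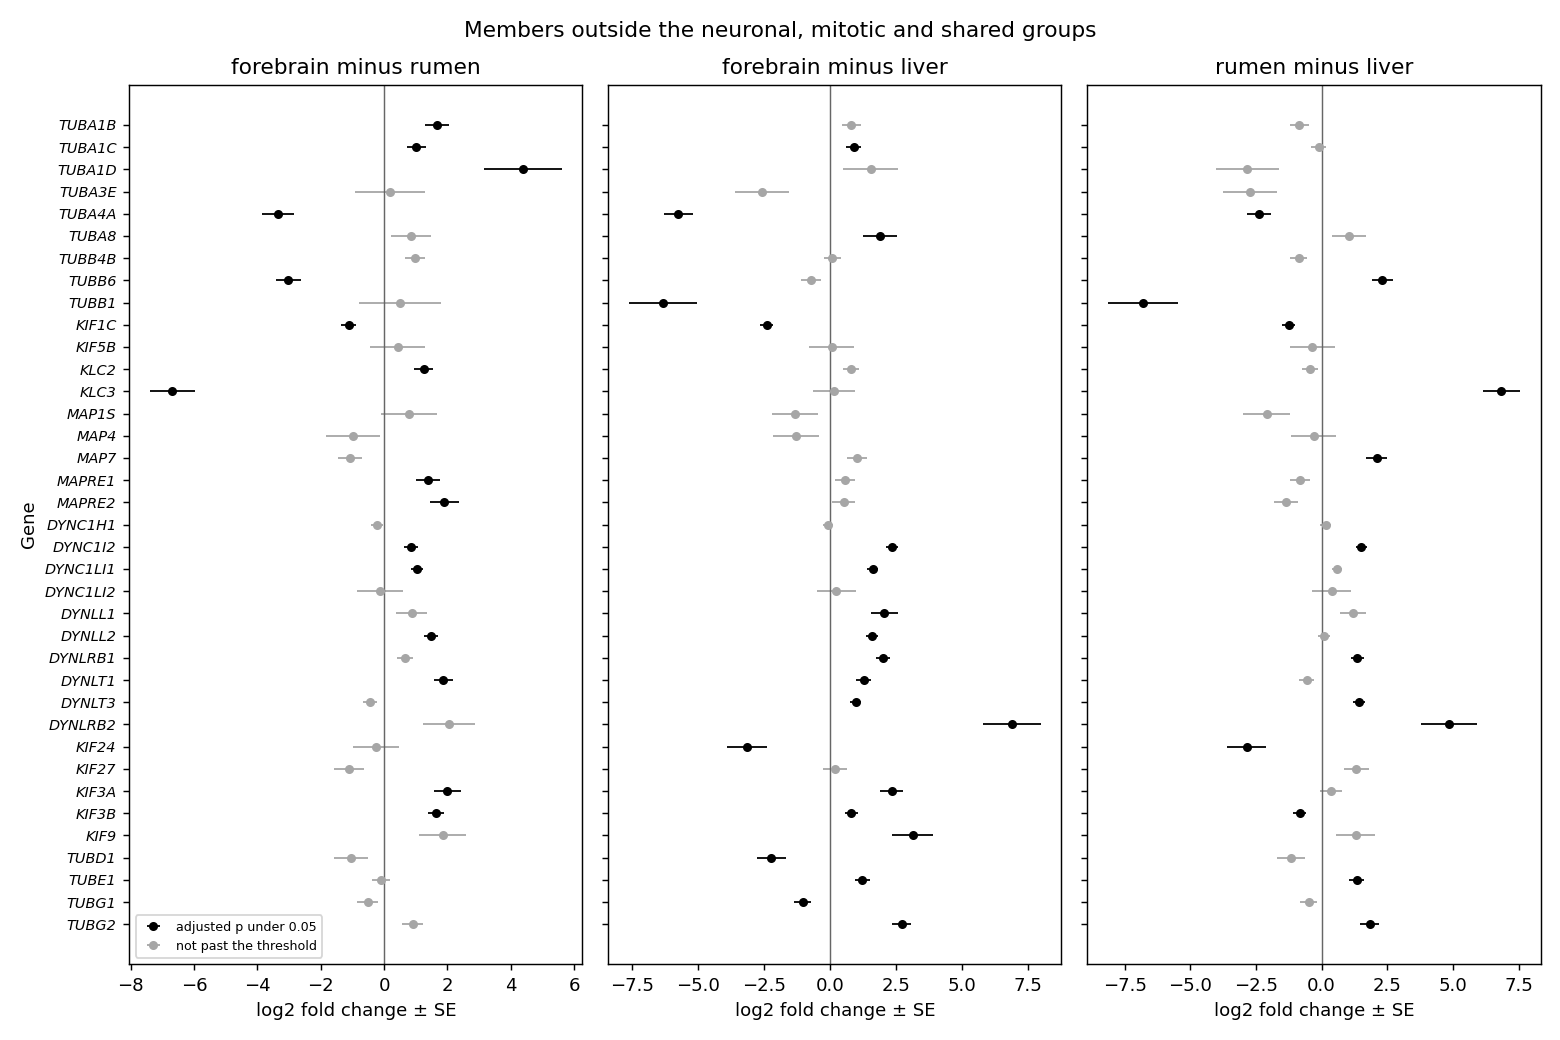
Log2 fold change with its SE (x axis) of the tested microtubule genes outside the neuronal, mitotic and shared groups (y axis), for forebrain minus rumen, forebrain minus liver and rumen minus liver, with black for an adjusted p under 0.05. KLC3 and TUBB6 lie left of 0 in forebrain minus rumen and right of 0 in rumen minus liver, TUBA4A and TUBB1 lie left of 0 in both comparisons with liver, and DYNC1H1 lies near 0 in all 3.

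Genes of centrioles, cilia and nucleation were split. Of 10, 2 were higher in forebrain than in rumen and 0 lower by edgeR, or 20% called against 39.3% of all tested genes. At an unadjusted p under 0.05, by DESeq2 and by limma voom, 5 each were higher there and 0 lower. By edgeR, 6 were higher and 3 lower in forebrain than in liver, and 3 higher and 2 lower in rumen than in liver. The share called was 90% for forebrain against liver and 50% for rumen against liver, with 55.3 and 40.3% of all tested genes called. Gamma tubulin seeds new microtubules. TUBG1, its main form, had 25.0 and 33.4 CPM in forebrain, against 40.9 and 43.1 in rumen and 74.5 and 43.7 in liver, and TUBG2, a form described as brain-enriched in mouse, had 48.2 and 50.5 CPM in forebrain, against 25.8 and 27.1 in rumen and 5.21 and 9.63 in liver. They lay in opposite directions in forebrain against liver: TUBG2 was 6.63-fold higher (adjusted p = 0.00123) and TUBG1 2.02-fold lower (adjusted p = 0.0373, edgeR), the second being lost without any 1 of the forebrain or rumen libraries (adjusted p up to 0.218). Of gamma tubulin counts, TUBG2 made up 65.8 and 60.2% in forebrain, 38.7 and 38.6% in rumen and 6.54 and 18.1% in liver. The tubulins of centriole triplets also parted. TUBE1 had 26.8 and 27.9 CPM in forebrain, against 26.9 and 31.6 in rumen and 10.9 and 12.3 in liver, higher in forebrain than in liver (adjusted p = 0.0102), and TUBD1 had 1.95 and 2.09 CPM in forebrain, against 4.67 and 3.75 in rumen and 11.8 and 7.07 in liver, lower in forebrain than in liver (adjusted p = 0.0148, edgeR), both calls lost without either forebrain library (adjusted p up to 0.0791 and 0.109). TUBE1 lost its call for rumen against liver without either rumen library (adjusted p up to 0.0851, edgeR). TUBG2 lost its call for rumen against liver without Rumen 2 (adjusted p = 0.0535, edgeR). TUBG1 and TUBG2 passed for forebrain against rumen without Liver 1 or Liver 2, and TUBG1 and TUBD1 passed for rumen against liver without Liver 2 (adjusted p from 0.00140 to 0.0395, edgeR).

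The kinesin-2 subunits KIF3A and KIF3B build cilia and also move cargo in axons. KIF3A had 37.5 and 28.6 CPM in forebrain, against 7.42 and 9.05 in rumen and 8.41 and 4.50 in liver, and KIF3B had 68.2 and 64.2 CPM in forebrain, against 20.8 and 21.4 in rumen and 32.1 and 43.1 in liver. KIF3B was higher in forebrain than in rumen by 3.14-fold (adjusted p = 0.00388, edgeR). KIF3A was 4.01-fold higher in forebrain than in rumen (adjusted p = 0.0124) and 5.12-fold higher than in liver (adjusted p = 0.00474, edgeR). The call of KIF3A against rumen was lost without any 1 of the forebrain or rumen libraries (adjusted p up to 0.112). DYNLRB2, a dynein chain of ciliated cells, had 15.2 and 20.7 CPM in forebrain and 2.83 and 5.85 CPM in rumen, with 4 counts in Liver 1 and none in Liver 2. DYNLRB2 passed against liver in both comparisons (adjusted p = 0.00258 for forebrain and 0.0127 for rumen, edgeR). KIF9, a kinesin of motile cilia, had 10.8 and 10.5 CPM in forebrain, against 1.22 and 4.68 in rumen and 0.968 and 1.41 in liver, higher in forebrain than in liver (adjusted p = 0.0144, edgeR). Beside them, the 4 markers of ciliated cells in the table summed to 49.1 and 79.8 CPM in forebrain, against 21.2 and 25.2 in rumen and 2.16 and 1.22 in liver. In forebrain and rumen most of that sum was TPPP3, at 32.7 and 63.7 CPM in forebrain and 16.5 and 20.8 in rumen. For forebrain against rumen 1 of the 4 was called higher by edgeR, FOXJ1, with 3.01 and 3.97 CPM in forebrain and no counts in rumen. The part of ciliated cells in these levels was not tested. KIF24, which restrains cilium formation at the centriole, was a liver transcript at 2.44 and 2.60 CPM in forebrain, against 1.22 and 4.84 in rumen and 29.3 and 14.7 in liver, 8.69-fold lower in forebrain than in liver (adjusted p = 0.0132, edgeR), a call lost without either forebrain library (adjusted p up to 0.0879). KIF27, a relative of the hedgehog kinesin KIF7, had 9.11 and 6.35 CPM in forebrain, against 16.9 and 16.5 in rumen and 4.69 and 8.67 in liver, with no call. KIF3B lost its call for forebrain against liver without any 1 of the forebrain or rumen libraries (adjusted p up to 0.167, edgeR) and for rumen against liver without any 1 of the forebrain or rumen libraries (adjusted p up to 0.187, edgeR). DYNLRB2 lost its call for rumen against liver without Rumen 2 (adjusted p = 0.0660, edgeR). KIF9 lost its call for forebrain against liver without either forebrain library (adjusted p up to 0.0750, edgeR). KIF24 lost its call for rumen against liver without either forebrain library or Rumen 1 (adjusted p up to 0.0900, edgeR). DYNLRB2, KIF9 and KIF27 passed for forebrain against rumen without Liver 1 or Liver 2, and KIF27 passed for rumen against liver without Liver 2 (adjusted p from 0.00210 to 0.0222, edgeR).

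Genes of the same system whose symbols the rule does not take were tested in the same fits, to be read against the 39.3% of all tested genes called for forebrain against rumen, 55.3% for forebrain against liver and 40.3% for rumen against liver. The shares of these lists called for forebrain against rumen ran from 16.7% in the tubulin modifying enzymes to 68.2% in the spindle and kinetochore genes. For forebrain against liver they ran from 53.8% in the dynactin and dynein adaptors to 95.5% in the spindle and kinetochore genes. For rumen against liver they ran from 15.4% in the dynactin and dynein adaptors to 62.5% in the other microtubule-associated proteins. Further shares are given in this order of comparisons. A count of 0 genes called in a direction is given with the count at an unadjusted p under 0.05 and with those of DESeq2 and limma voom. Of 22 spindle and kinetochore genes, 15 were lower in forebrain than in rumen, 21 lower in forebrain than in liver and 13 lower in rumen than in liver by edgeR, with median log2 fold changes of -1.80, -2.97 and -1.35. None was higher in any comparison, also at an unadjusted p or by DESeq2 or limma voom, which gave 0 each. CENPF, a kinetochore protein, averaged 14.7 ± 0.214 CPM in forebrain, against 53.3 ± 1.72 in rumen and 590.3 ± 37.2 in liver (SD, n = 2 each). ASPM, a spindle pole protein whose human mutations cause small brains, averaged 4.27 ± 0.522 CPM in forebrain, against 21.2 ± 2.64 in rumen and 136 ± 31.9 in liver (SD, n = 2 each). NDC80, which ties kinetochores to microtubules, averaged 3.57 ± 0.246 CPM in forebrain, against 22.6 ± 2.01 in rumen and 43.5 ± 2.82 in liver (SD, n = 2 each).

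Of 16 other microtubule-associated proteins, 7 were higher and 0 lower in forebrain than in rumen (edgeR; 0 lower at an unadjusted p and by DESeq2 and limma voom), 10 higher and 2 lower in forebrain than in liver, and 9 higher and 1 lower in rumen than in liver. Their median log2 fold changes were 1.22, 2.83 and 1.15, and 43.8, 75 and 62.5% of them were called. CRMP1, a collapsin response protein of growing axons, averaged 533 ± 9.57 CPM in forebrain, against 25.6 ± 5.49 in rumen and 0.641 ± 0.275 in liver (SD, n = 2 each). FEZ1, an adaptor of kinesin-1 in axons, averaged 443 ± 27.2 CPM in forebrain, against 10.3 ± 1.06 in rumen and 5.52 ± 4.64 in liver (SD, n = 2 each). Of 9 genes of end-tracking and minus-end proteins and their relatives, CLIP3 among them, 22.2, 55.6 and 22.2% were called in the 3 comparisons. By edgeR, 2 were higher and 0 lower in forebrain than in rumen. The higher ones there numbered 6 at an unadjusted p under 0.05, 6 by DESeq2 and 3 by limma voom, and the lower ones 1, 0 and 0. By edgeR, 4 were higher and 1 lower in forebrain than in liver, and 2 higher and 0 lower in rumen than in liver (0 lower at an unadjusted p and by both other tools). CLASP2, which anchors growing ends, averaged 906 ± 80.6 CPM in forebrain, against 108 ± 16.7 in rumen and 58.6 ± 21.7 in liver (SD, n = 2 each), and CLIP3 averaged 143 ± 0.765 CPM in forebrain, against 41.8 ± 5.61 in rumen and 4.62 ± 1.37 in liver (SD, n = 2 each).

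Of 7 genes for tubulin folding and the isotype TUBB, 3 were higher in forebrain than in rumen, 5 higher in forebrain than in liver and 4 higher in rumen than in liver by edgeR, and 0 were lower (1, 0 and 0 at an unadjusted p in the 3 comparisons, and 0 by DESeq2 and limma voom). In this list 42.9, 71.4 and 57.1% were called in the 3 comparisons. TBCB, a folding cofactor of alpha tubulin, averaged 360.2 ± 69.8 CPM in forebrain, against 80.4 ± 6.37 in rumen and 37.6 ± 1.94 in liver (SD, n = 2 each). Of 12 tubulin modifying enzymes, 2 were higher and 0 lower in forebrain than in rumen (edgeR; 2 lower at an unadjusted p, 1 by DESeq2 and 0 by limma voom), 6 higher and 4 lower in forebrain than in liver, and 3 higher and 3 lower in rumen than in liver. Among these enzymes 16.7, 83.3 and 50% were called in the 3 comparisons. TTLL1, a subunit of a tubulin polyglutamylase, averaged 191 ± 11.8 CPM in forebrain, against 25.5 ± 1.83 in rumen and 15.7 ± 4.55 in liver (SD, n = 2 each). The glutamylase TTLL4 was lower in forebrain than in liver (adjusted p = 2.98e-04, edgeR), with 8.24 ± 1.34 CPM in forebrain, against 12.9 ± 0.124 in rumen and 109 ± 37.4 in liver (SD, n = 2 each).

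Of 13 dynactin and dynein adaptor genes, edgeR called 5 higher and 2 lower in forebrain than in rumen, and 6 higher and 1 lower in forebrain than in liver. In rumen against liver it called 2 higher and 0 lower. DESeq2 called 4 higher there and limma voom 3, with 0 lower at an unadjusted p under 0.05 or by either. By edgeR 53.8, 53.8 and 15.4% of this list were called, with 39.3, 55.3 and 40.3% of all tested genes called. NDE1, which works with dynein at mitotic kinetochores and in neural progenitors, was low in forebrain, averaging 2.33 ± 0.954 CPM in forebrain, against 38.2 ± 3.84 in rumen and 41.6 ± 16.2 in liver (SD, n = 2 each; adjusted p = 0.00124 for forebrain against rumen and 5.93e-04 for forebrain against liver, edgeR). Of 7 genes of the gamma tubulin ring complex, 2 were higher and 2 lower in forebrain than in rumen. Against liver, 0 were higher and 4 lower in forebrain (edgeR; 1 higher at an unadjusted p, by DESeq2 and by limma voom) and 0 higher and 3 lower in rumen (0 higher at an unadjusted p and by both other tools). Of 6 severing enzymes, 2 were higher and 1 lower in forebrain than in rumen, 2 higher and 2 lower in forebrain than in liver, and 1 higher and 0 lower in rumen than in liver (edgeR; 1 lower at an unadjusted p, 0 by DESeq2 and limma voom). In the gamma tubulin ring list 57.1, 57.1 and 42.9% were called in the 3 comparisons by edgeR. For the severing enzymes the shares were 50, 66.7 and 16.7%. SPAST, the spastin of hereditary spastic paraplegia, averaged 157 ± 11.9 CPM in forebrain, against 66.0 ± 14.5 in rumen and 33.3 ± 9.11 in liver (SD, n = 2 each).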

How the data were processed

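Libraries of poly(A) RNA were prepared with an NEBNext Ultra kit, per the labels' protocols. HISAT2 2.0.5, featureCounts 1.5.0-p3 and edgeR 3.18.1 are named in the submitters' processing notes. Genome build, annotation, strand setting and handling of multi-mapping reads: not given in the sources used here. The authors deposited unscaled read counts by gene symbol, 1 column for each library, and all 6 columns matched a label by name.

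Tests used edgeR 4.0.16 (R 4.3.3): filterByExpr kept 11478 of 14179 genes, TMM factors (0.812 to 1.20) scaled the totals, and 1 quasi-likelihood fit with a mean for each tissue (3 residual degrees of freedom) gave 3 comparisons, at a threshold of 0.05 after Benjamini-Hochberg adjustment across all tested genes. SE is the log2 fold change over the root of the F statistic. Fitted folds depend on a prior count, so against a tissue with no counts a lower bound is given, set by 3 counts over both libraries, and against 1 to 3 counts a ratio with an exact 95% counting interval. A home tissue needed a log2 fold change of at least 2 and a call against both others. Symbols were matched to a RefSeq table of assembly ARS-UCD2.0 (72 of 72), used only for names and overlaps. A further 26 RefSeq symbols of the same form have no row in the count table, so their levels are unknown. In the annotation 25 members overlap another gene. Besides KIF20A, KIF23, KLC3 and DCX, these include KLC1 with XRCC3 and TUBB4B with FAM166A. TUBB4A and KIF9 also overlap a protein-coding gene, and the same limit holds for their reads.

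Members, role groups and lists were chosen with earlier results of these data known. The naming rule gave values in every library for tubulins, stathmins, structural MAPs, doublecortin genes and mitotic kinesins, for genes with a home tissue in each other role and for up to 4 of highest level there; some further members and marker genes were named after their values were seen. From the other lists, genes among the 2 largest called changes of a comparison were named. The fit was tested on simulated data. Alternatives were RLE and upper quartile factors, no filter, DESeq2 1.42.0, limma 3.58.1 voom, a replicate block, only the tissues compared, each library left out and, chosen after seeing the data, a robust fit.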

Additional observations from a re-analysis of the deposited data

How the results depend on the processing

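With each library left out in turn, the genes higher in forebrain than in rumen numbered 19 to 40 (33 with all libraries) and the lower ones 9 to 20 (14). Against liver they numbered 27 to 47 (36) and 13 to 20 (17), and for rumen against liver 16 to 31 (24) and 5 to 26 (14). In the same fits the neuronal genes higher in rumen than in liver numbered 9 to 18 (14) and the lower ones 0 to 1 (0), and the mitotic kinesins lower in forebrain than in rumen 6 to 11 (10) and lower in rumen than in liver 4 to 9 (9). The share of all tested genes called also fell without a forebrain or a rumen library and rose without a liver library, in all 3 comparisons. With only the rumen and liver libraries in the fit, 8 neuronal genes were higher in rumen, and DESeq2 called 1 neuronal gene, MAP2, lower there. That fit of 2 tissues called 30.8% of all tested genes, against 40.3% with all libraries. With only the forebrain and rumen libraries 65.5% were called, against 39.3% with all libraries. With only the forebrain and liver libraries 49.2% were called, against 55.3%. The forebrain and rumen counts are the same with and without liver, so the calls between them depend on whether the liver spread enters the fit. Directions turned with the liver library left out (lowest and highest log2 fold change): KIF5B gave -0.77 and 2.36 for forebrain against liver and -1.20 and 1.92 for rumen against liver, without Liver 2 and without Liver 1. MAP4 gave -2.13 and 1.09 for forebrain against liver and -1.15 and 2.06 for rumen against liver, in the same order. The cause was not tested. The counts over all microtubule genes, neuronal genes and mitotic kinesins otherwise stayed within 1.5 times under RLE or upper quartile factors, no filter, DESeq2, limma voom and the robust fit. Smaller groups moved more: DESeq2 and limma voom each called 5 cilium, centriole and nucleation genes higher in forebrain than in rumen (2 by edgeR), and DESeq2 called 5 dynein genes higher in rumen than in liver (3), 6 end-tracking genes higher in forebrain than in rumen (2), 4 dynactin genes higher in rumen than in liver (2) and 2 dynactin genes lower in forebrain than in liver (1). Of the other microtubule-associated proteins, limma voom called 0 lower in forebrain than in liver (2) and 0 lower in rumen than in liver (1). Upper quartile factors moved the median of all genes by 0.15 (log2) for rumen against liver, and no called gene changed direction under them. Library numbers are not known to mark the same fetus, and deviations of same-numbered libraries correlated at -0.09, 0.08 and 0.02 across genes for forebrain with rumen, forebrain with liver and rumen with liver. With the replicate number as a block, 32 and 13 genes were higher and lower in forebrain than in rumen, 34 and 16 than in liver, and 23 and 12 in rumen than in liver. At these depths a gene with no counts in a tissue may lie anywhere below its floor. The planned look at promoter motifs was not run.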
